A study of Thlaspi arvense with 10 samples.

Results

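The models described here are 461 of the 27148 gene models counted in cultured pennycress embryos: models with many reads that stood moderately higher in embryos overexpressing WRI1 and DGAT1 than in wild type (WT). Pennycress (Thlaspi arvense) is an oilseed relative of Arabidopsis. All embryos were of the cultivar Spring32. They were dissected about 15 days after flowering and kept in culture for 10 days at 20 °C, with 15 embryos to a flask. Light was continuous, at 50 µmol per square metre per second. The medium held PEG4000 at 20% (w/v), Ala at 10 mM, Gln at 35 mM and glucose at 120 mM. The groups were 5 libraries of line WD3, which overexpresses both genes and is called the line below, and 5 libraries of WT. WD3 is a single line, no source used here gives the promoters or the origin of the transgenes, and the labels do not say whether libraries came from separate flasks or plants.

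Seeds of this family store carbon as oil and protein while the embryo matures. WRI1 is a transcription factor that switches on genes of late glycolysis and of fatty acid synthesis in the plastid, and DGAT1 is the membrane enzyme that joins the last fatty acid to diacylglycerol to make oil. In such embryos a small number of transcripts, among them those of storage proteins, takes a large part of all messenger RNA, so a shift in these moves every other transcript's share.

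Members were chosen on CPM (the counts of a model divided by the total of its library, times 1000000). A model was a member if its mean in the line was at least 100 CPM, if that mean was at least 2 and under 8 times the WT mean, and if its lowest line library lay above its highest WT library; the 100 models with the largest WT mean were left out. The difference between the line and WT therefore chose the members, and it is described below without a test. CPM is not scaled by transcript length, so ranks by CPM order models by their reads and not by their number of transcripts. The identifiers are not paired with gene names in the files used here, and no annotation was used, so no function is given to any model, WRI1 and DGAT1 were not identified, and the embryo label was not checked against marker genes.

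The line libraries held between 55525341 and 76983434 counts and the WT libraries between 68756445 and 89432933. The lowest count of any member in any library was 244. WT libraries fell apart into 2 sets. A chi-square per degree of freedom on counts divided by 4, over tested models with enough counts, was 5.73 between replicates 1 and 3. It was at most 13.8 among replicates 2, 4 and 5, but between 28.7 and 65.4 across these sets. Between line libraries it ran from 3.94, for replicates 3 and 4, to 20.1, for replicates 2 and 3. The members' number, median change, share of counts and spread are also given without either set of WT libraries.

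All 461 members carried an MSTRG identifier, which StringTie gives to a locus it assembled, and so did all 1775 models of at least 100 CPM in the line. Members made up 26.0% of those 1775 models. Together they held 13.96%, 13.8%, 14.4%, 14.3% and 13.8% of all counts in line replicates 1 to 5, against 5.25%, 4.49%, 5.35%, 4.20% and 4.03% in WT replicates 1 to 5. In this share the line libraries were close to each other. That all lay above every WT library follows from the rule. Among the WT libraries, replicates 1 and 3 were the highest. The mean share was 14.1% ± 0.268 in the line and 4.67% ± 0.603 in WT (SD, n = 5 each), a ratio of 3.01. The WT mean was 4.24% without WT libraries 1 and 3 and 5.30% without WT libraries 2, 4 and 5. In RNA from whole embryos, fewer cells of a type and less RNA per cell cannot be told apart.

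Over the same libraries the 100 models with the largest WT mean held 26.9% ± 1.12 of the counts in the line and 42.9% ± 0.739 in WT (SD, n = 5 each). When these were taken out of the total, the members held 19.2% ± 0.103 in the line and 8.18% ± 1.13 in WT, a ratio of 2.35. The 100 models held a smaller share in the line, so taking them out lowers the members' ratio by arithmetic. Whether their share moved that of the members was not tested. With TMM factors, which scale libraries on the bulk of the models, 325 models met the same rule, 318 of them among the 461; with upper-quartile factors 269 did, 259 of them among the 461.

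**Figure D1:**
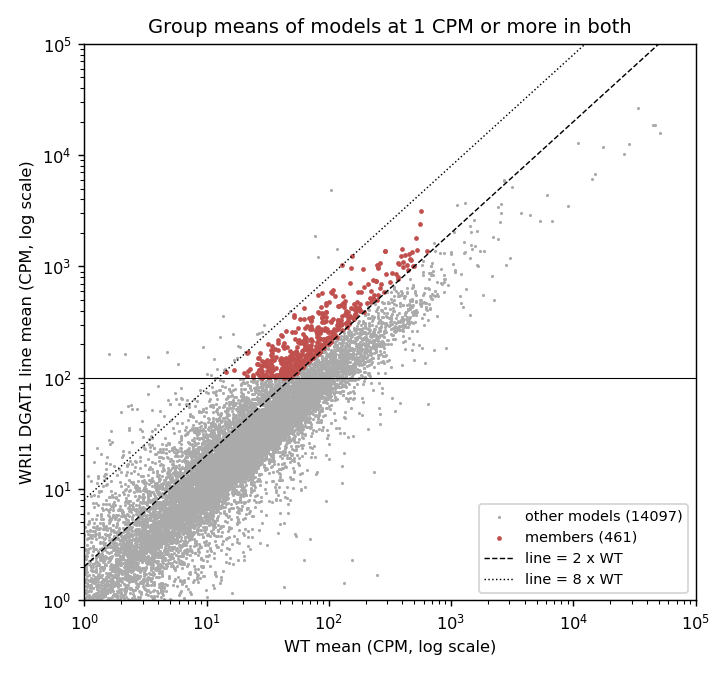
Mean CPM in the line (vertical axis) against mean CPM in WT (horizontal axis), both on log scales, for each model with at least 1 CPM in both groups. Red points are the 461 members, grey points the 14097 others, the dashed and dotted lines mark ratios of 2 and 8, and the horizontal line marks 100 CPM; the few grey points within these bounds are models whose groups overlapped or that were left out for their WT abundance.

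Mean levels of the members ran from 100.2 to 3163 CPM in the line, with a median of 192 CPM, and from 14.4 to 630.2 CPM in WT, with a median of 67.9 CPM. By mean CPM among all models, the members took places 21 to 1773 in the line, with a median of 784, and places 103 to 8434 in WT, with a median of 2138. In the line 157 members lay under 150 CPM, 84 at 150 to 200 CPM, 83 at 200 to 300 CPM, 76 at 300 to 500 CPM, 37 at 500 to 1000 CPM and 24 above that.

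Ratios of the line mean to the WT mean crowded towards the lower limit of the rule. Their median was 2.80, with quartiles of 2.33 and 3.66. A ratio under 2.5 was found in 165 members (35.8%), from 2.5 to under 3 in 96, from 3 to under 4 in 102, from 4 to under 5 in 58, from 5 to under 6 in 26 and from 6 to under 8 in 14. The log2 ratio and the log2 line level were nearly unrelated across members, with a Pearson r of 0.14 over 461 models that share the same 10 libraries. In 232 members (50.3%) the lowest line library was at least 2 times the highest WT library, and in 6 members it was under 1.1 times. The rule kept it above the highest WT library in every member, and these counts are not given for other models.

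On the TMM scale, the log2 change of the members fitted by edgeR, a package for testing counts, had a median of 1.30 and ran from 0.80 to 2.82, beside a median of -0.04 over the 17471 models tested. The median standard error was 0.10 for the members and 0.12 over all models. All members passed the low-count filter of the fit, and 444 of them were called higher in the line at an adjusted p under 0.05 (quasi-likelihood F-test of edgeR, adjusted by Benjamini-Hochberg), where 29.6% of all tested models were; since the same contrast chose the members, nothing is read from that count. The lowest line library lay above the highest WT library in 32.4% of all tested models, and in every member by the rule. Of all calls, 47.0% went upward on the TMM scale; library totals alone gave 62.7%, and upper-quartile factors gave 36.9%. Without WT libraries 1 and 3 the members' median log2 change was 1.53, and without WT libraries 2, 4 and 5 it was 1.16.

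The member with the largest line mean was MSTRG.5994, at 3047, 3095, 3308, 3307 and 3058 CPM in line replicates 1 to 5, against 561, 613, 511, 572 and 580.2 CPM in WT replicates 1 to 5. Its lowest line library was 4.97 times its highest WT library, and the libraries within each group differed little. Its mean was 3163 ± 133 CPM in the line and 568 ± 37.0 CPM in WT (SD, n = 5 each), a ratio of 5.57 and an edgeR log2 change of 2.30 (SE 0.05).

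The member with the largest ratio was MSTRG.6146, which was also the member with the widest gap between the groups. It stood at 930.1, 959, 1060.2, 1029.6 and 1151 CPM in line replicates 1 to 5, against 129, 132, 122, 126 and 132 CPM in WT replicates 1 to 5. Every line library was thus at least 7.03 times every WT library, while the WT libraries were nearly level. The ratio of means was 7.99, just under the upper limit of the rule.

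The other members of the first 10 by line CPM are described by their rank. The second stood at 2400.3, 2573, 2224, 2341 and 2471 CPM in line replicates 1 to 5, against 501, 570.4, 522, 603 and 610.1 CPM in WT replicates 1 to 5, a ratio of 4.28. The third stood at 1774, 1709, 1898, 1843 and 1779.7 CPM in the line, against 474, 543, 485, 524 and 558 CPM in WT, a ratio of 3.49. In both models the replicates of each group lay close together and the groups were far apart, with edgeR log2 changes of 1.92 (SE 0.06) and 1.62 (SE 0.04).

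The fifth, sixth and eighth models had the same shape. The fifth stood at 1362, 1299.8, 1513, 1465 and 1436 CPM in line replicates 1 to 5, against 533, 565, 536, 521 and 483 CPM in WT replicates 1 to 5, a ratio of 2.68. The sixth stood at 1285, 1360.2, 1404, 1405 and 1500.0 CPM in the line, against 650.1, 682, 618, 573 and 627 CPM in WT, a ratio of 2.21. The sixth was the member with the largest WT mean. Its edgeR log2 change was 0.96 (SE 0.07) with TMM factors, which is under 2-fold on that scale, and 1.14 with library totals alone. The eighth stood at 1345, 1383, 1274, 1388 and 1473 CPM in the line, against 295, 313, 260.3, 268 and 299 CPM in WT, a ratio of 4.78. The highest WT library of the fifth was 1.17 times its lowest, and that of the sixth 1.19 times.

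The fourth, the seventh, the ninth and the tenth differed from these in WT. The fourth stood at 1506, 1551, 1439.9, 1415 and 1239.6 CPM in line replicates 1 to 5, against 489, 482, 460.0, 304 and 246 CPM in WT replicates 1 to 5, a ratio of 3.61. The seventh stood at 1353, 1268, 1543, 1505 and 1214 CPM in the line, against 372, 258, 408, 222 and 191 CPM in WT, a ratio of 4.74. In both, WT replicates 4 and 5 were the lowest, and in the seventh replicates 1 and 3 stood out as the highest. The ninth stood at 1355, 1254, 1452, 1288 and 1449 CPM in the line, against 701, 499.9, 627, 300.2 and 289 CPM in WT, a ratio of 2.81. The tenth stood at 1173, 1230.0, 1415, 1361 and 1274 CPM in the line, against 721, 341, 699.6, 291 and 214 CPM in WT, a ratio of 2.85. The WT libraries of the tenth spanned 3.37 times, the line libraries 1.21 times. Standard errors of the edgeR log2 change were accordingly larger for these 4 models, between 0.20 and 0.34, than for the other 6, between 0.04 and 0.07.

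**Figure D2:**
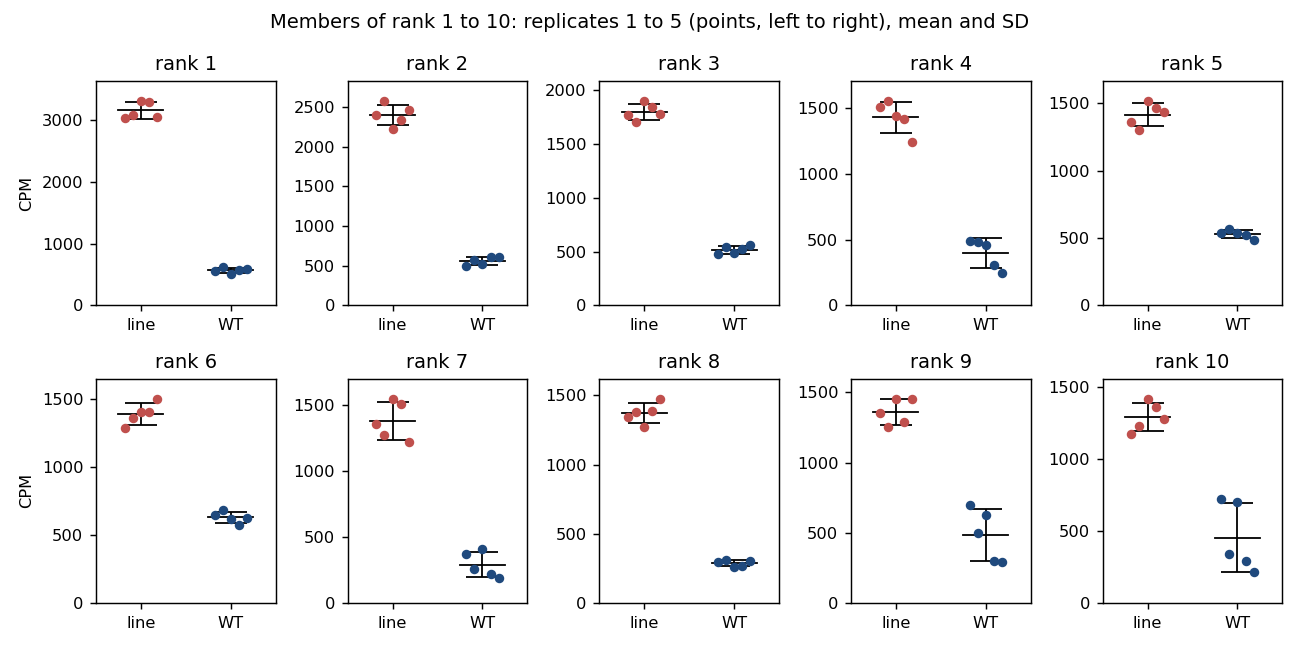
CPM of the 10 members with the largest line mean, 1 panel each, with the line (red) left of WT (blue). Points are replicates 1 to 5 from left to right, bars the mean ± SD. In every panel the groups are apart, as the rule requires. WT replicates spread widely for ranks 4, 7, 9 and 10 but not for the others.

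The order of the WT libraries was not used by the rule, and 1 pair of them was highest more often in the members than in all tested models. WT replicates 1 and 3 were the 2 highest WT libraries in 205 members (44.5%), against 15.8% of all tested models. In another 96 members (20.8%) replicates 2 and 5 were highest, against 24.0% of all tested models, and in 69 (15.0%) replicates 4 and 5 were, against 24.8%. Each of the other 7 possible pairs was found in at most 29 members. The most frequent full order, from high to low, was replicate 3, 1, 2, 4, 5, seen in 116 members (25.2%), and the next was 1, 3, 2, 4, 5, in 41. With TMM factors 250 members (54.2%) had replicates 1 and 3 highest, and 24.1% of all tested models did. Models are not independent of each other, so no test was made of these shares.

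**Figure D3:**
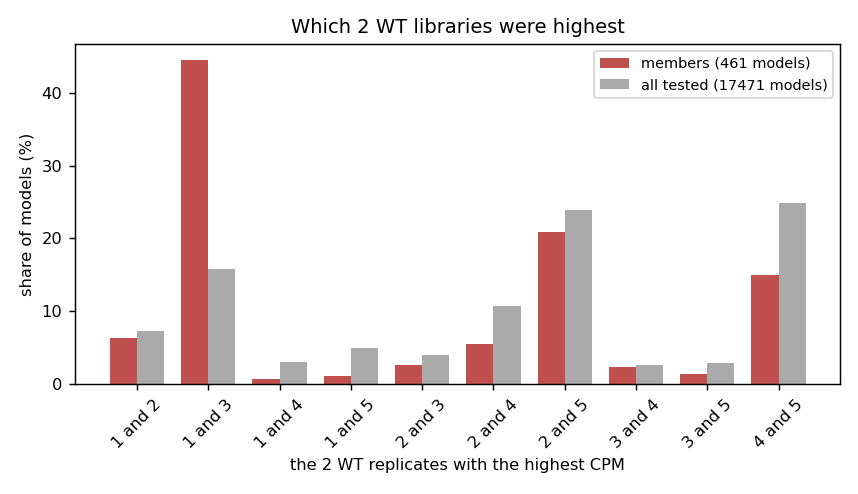
Share of models (vertical axis, percent) in which each pair of WT replicates (horizontal axis) had the 2 highest CPM values, for the 461 members (red) and all 17471 tested models (grey). Replicates 1 and 3 were highest in 44.5% of the members and in 15.8% of all tested models.

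The share with WT replicates 1 and 3 highest differed along the range of ratios. Among models of at least 100 CPM in the line outside the 100 left out, it was 13 of 31 (41.9%) at ratios of at least 8, the 205 of 461 in the members, 186 of 741 (25.1%) at ratios from 1 to under 2, 41 of 420 (9.76%) at ratios from 0.5 to under 1 and 1 of 18 (5.56%) under 0.5. With TMM factors the same shares were 45.2%, 54.2%, 37.8%, 28.3% and 11.1%. A further 2 of 4 models with ratios from 2 to under 8 had it, whose groups overlapped. By library totals, 1 more model among the 31 at ratios of at least 8 would turn their order with the members round, so that order is not read. The bands below a ratio of 2 followed in falling order under both scalings.

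Spread within WT went with that pattern. In the 205 members with replicates 1 and 3 highest, the highest WT library was a median of 2.51 times the lowest, and at least 2 times in 142 of them. In the other 256 members the median was 1.28 times, and 14 reached 2 times. Within the line the corresponding medians were 1.16 and 1.18 times, close to each other. Their ratios of line to WT means were also close, with medians of 2.82 and 2.80. The lowest line library was at least 2 times the highest WT library in 69 of the 205 and in 163 of the 256.

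Summed over the 205 members, 5.65%, 5.69%, 5.79%, 5.86% and 5.61% of all counts lay in them in line replicates 1 to 5, against 2.69%, 1.60%, 2.81%, 1.41% and 1.14% in WT replicates 1 to 5. That replicates 1 and 3 were highest here follows from how the 205 were picked, and the pick also widens the difference. The order among replicates 2, 4 and 5 was not used to pick them. The other 256 held 8.31%, 8.14%, 8.57%, 8.47% and 8.20% in line replicates 1 to 5, against 2.56%, 2.90%, 2.54%, 2.79% and 2.89% in WT replicates 1 to 5. Here the WT libraries were nearly level; taking out the 205 lowers the sums in replicates 1 and 3, so their order is not read.

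The ratio of a member also varied with the WT library it was set against, in a direction that the split into these sets partly fixes. Over the 205, the line mean was a median of 2.03, 3.58, 1.91, 4.00 and 5.31 times WT replicates 1 to 5. Over the 256 it was 3.07, 2.66, 3.09, 2.72 and 2.62 times.

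**Figure D4:**
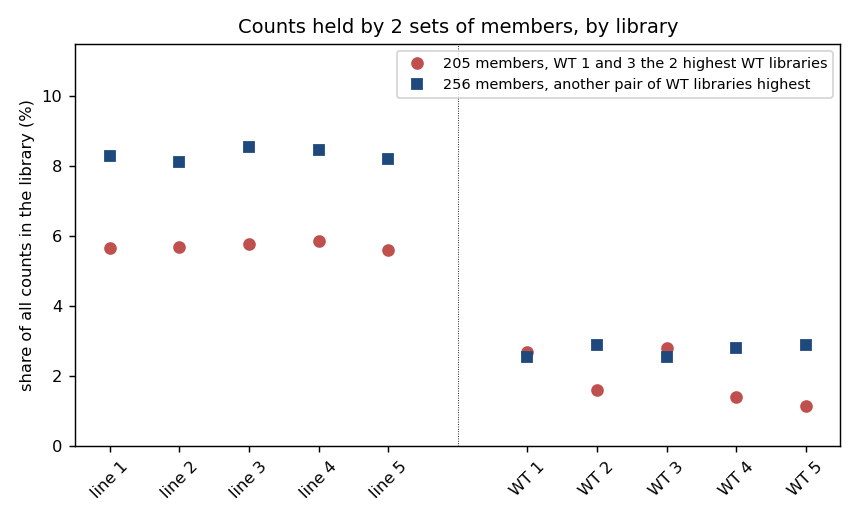
Share of all counts in each library (vertical axis, percent) held by the 205 members with WT replicates 1 and 3 highest (red circles) and by the other 256 (blue squares), with the line libraries left of the WT libraries. The line libraries were level for both kinds of member; in WT the 205 ran from 1.14% to 2.81% and the 256 from 2.54% to 2.90%.

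WT libraries varied more than line libraries for most members. The coefficient of variation over 5 libraries had a median of 6.42% in the line and 15.4% in WT, and it was larger in WT for 386 of the 461 members (83.7%). Among models of at least 100 CPM in the line with ratios from 1 to under 2, the medians were 6.20% in the line and 10.7% in WT, with a larger value in WT for 76.8%. At ratios from 0.5 to under 1 they were 6.52% and 8.54%, with a larger value in WT for 62.4%. At ratios of at least 8 they were 10.0% and 31.5%, with a larger value in WT for 87.1%, so the members lay between their neighbours in ratio. For the members, the WT median was 10.4% without WT libraries 1 and 3, with a larger value in WT for 309 of 461, and 4.35% without WT libraries 2, 4 and 5, with a larger value in WT for 158; these rest on 3 and 2 libraries against 5 of the line. The requirement that groups do not overlap limits the spread of members with small ratios, so these values are partly set by the rule.

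The extremes show the range within this set; they were chosen after their values were seen. The widest WT spread was that of a member at 116, 123, 113, 118 and 108 CPM in line replicates 1 to 5, against 63.7, 6.54, 73.1, 9.01 and 3.51 CPM in WT replicates 1 to 5. Its WT libraries spanned 20.8 times and its line libraries 1.14 times. The widest line spread was that of a member at 949.97, 404, 608, 677 and 324 CPM in the line, against 61.3, 99.4, 66.9, 127 and 164 CPM in WT. There the WT order was turned round, with replicates 1 and 3 the lowest, and line replicate 1 stood 2.94 times above line replicate 5. The tightest line values were those of a member at 211, 209, 212, 214 and 209 CPM in the line, against 80.4, 81.3, 73.8, 80.2 and 85.7 CPM in WT.

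The 17 members that edgeR did not call all had WT replicates 1 and 3 highest. Their highest WT library was between 3.79 and 20.8 times their lowest, their ratios of means lay between 2.03 and 3.71, and their lowest line library was at most 1.48 times the highest WT library. Standard errors of their log2 changes were between 0.36 and 0.77. The member with the narrowest gap was among them, at 619, 656, 491, 498 and 481 CPM in line replicates 1 to 5, against 408, 135, 459, 120.3 and 48.8 CPM in WT replicates 1 to 5. Its lowest line library was 1.05 times its highest WT library. Of the 444 called members, 188 also had WT replicates 1 and 3 highest. WT spreads of called members reached 18.1 times and their standard errors 0.72. Their lowest line library was as little as 1.07 times the highest WT library, so the called members overlapped the 17 in these measures.

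**Figure D5:**
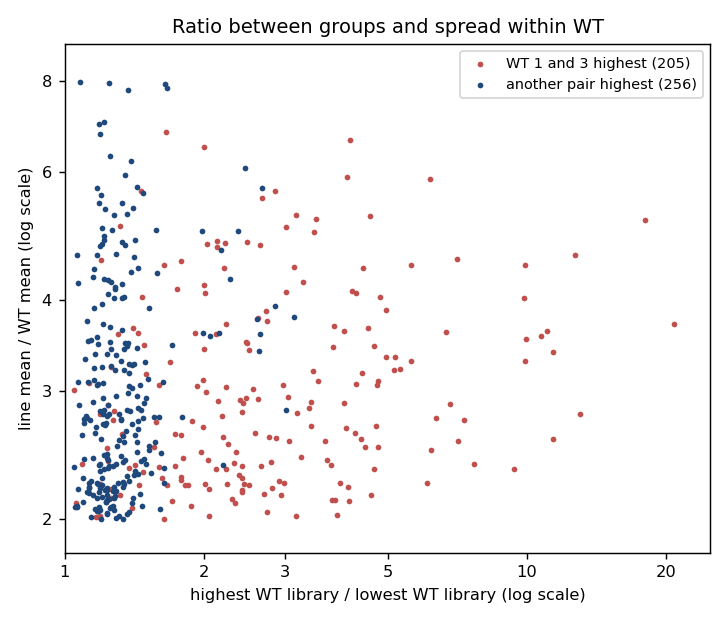
Ratio of the line mean to the WT mean (vertical axis, log scale) against the ratio of the highest to the lowest WT library (horizontal axis, log scale) for each of the 461 members. Members with WT replicates 1 and 3 highest (red, 205) extend to a WT spread of 20.8 times, and most others (blue, 256) lie below 2 times, at similar heights.

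Each library was also left out of the choice in turn, and its values were set against members it had not helped to choose. Those members were already at least 2-fold apart, without overlap, in the remaining libraries of the same groups. That made it likely from the start that they would keep their side. The shares given beside them are over models of any ratio, the chosen members included, so the contrast is not read as support. With a line library left out, between 454 and 461 members were chosen, and between 454 and 460 of them lay above all WT libraries in the left-out library, a loss of at most 2. Among all models of at least 100 CPM in the line, outside the 100, between 61.1% and 66.1% did so. With a WT library left out, between 449 and 478 members were chosen, and at most 3 of them did not lie below all line libraries in the left-out library, where between 64.2% and 68.0% of the models of at least 100 CPM lay below. The line mean was at least 2 times the left-out library in 349 of 475 members (73.5%) for WT replicate 1 and in 339 of 478 (70.9%) for replicate 3, but in 92.1%, 94.5% and 89.98% for WT replicates 2, 4 and 5. For the left-out line libraries, between 90.7% and 98.0% were at least 2 times the WT mean. Without WT libraries 1 and 3 together the rule chose 496 models, 414 of them among the 461, and without WT libraries 2, 4 and 5 it chose 402, of which 348 were among the 461.

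At the limits of the rule, values on both sides were close. The member with the smallest ratio stood at 162, 170.2, 166, 165 and 184 CPM in the line, against 81.2, 83.9, 72.8, 88.6 and 97.6 CPM in WT, a ratio of 2.00. The closest model below the limit had a ratio of 1.998, with a mean of 268 CPM in the line and 134 CPM in WT. At the upper limit the closest model outside had a ratio of 8.14, with 395 CPM in the line and 48.5 CPM in WT. At the level limit, the last member stood at 100.2 CPM in the line and 28.6 CPM in WT, and the first model outside at 99.8 CPM and 47.4 CPM. A further 4 models met the limits on level and ratio but overlapped between the groups, with lowest line libraries between 0.922 and 0.996 times the highest WT library. Another 5 met every criterion but ranked among the 100 most abundant in WT; their means ran from 1633 to 6019 CPM in the line and from 723 to 2708 CPM in WT, with ratios from 2.15 to 3.21.

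The MSTRG numbers, which the rule did not use, showed a few members side by side. StringTie as a rule numbers loci in the order in which it meets them along the genome, but no positions were used here, so whether consecutive numbers are neighbouring genes or pieces of the same transcript was not tested. Of the 461 members, 51 (11.1%) had a number next to that of another member, in 22 runs of 2, 1 run of 3 and 1 run of 4. The share in equally large sets of other models is not given here, so nothing is read from these counts. In the 27 adjacent pairs the log2 ratios of line to WT differed by a median of 0.20, against 0.42 over all 106030 pairs of members. The pair of highest WT libraries was the same in 11 of the 27 adjacent pairs (40.7%) and in 27.0% of all pairs.

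In the run of 3, which held the members of rank 9, 18 and 76, ratios lay between 2.59 and 2.92 and all shared the same pair of highest WT libraries. The run of 4 was less alike. Its first member stood at 219.7, 231, 200.2, 225 and 218 CPM in line replicates 1 to 5, against 76.2, 47.5, 87.0, 40.8 and 31.9 CPM in WT replicates 1 to 5. Its last stood at 281, 229, 296, 282 and 231 CPM in the line, against 38.8, 51.0, 37.9, 44.7 and 49.2 CPM in WT. The first thus followed the pattern with WT replicates 1 and 3 high and the last did not, and ratios in the run went between 2.99 and 5.95.

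Models that carry a number next to a member but are no members were not far from the rest. Of 830 such models tested, 287 (34.6%) were called higher in the line and 271 (32.7%) lower (edgeR, adjusted p under 0.05), beside 29.6% and 33.4% of all tested models, and 29.4% and 35.7% of the 14460 tested MSTRG models that are neither members nor next to one. At least 2-fold higher calls were made for 103 (12.4%), beside 12.3% of all tested models and 10.6% of those 14460. Their median log2 change was 0.04, against -0.05 for those 14460. No test was made of these differences.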

How the data were processed

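Groups and replicate numbers of the 10 poly(A) RNA libraries were read from the titles. The deposited values are the authors' raw counts of each model, not normalized; 0 columns were left unused. The submitters' processing notes name HISAT2 2.2.1 and StringTie 2.2.1 without settings. No source used here gives the genome build, the annotation, or how counting and strand were handled; overlapping or duplicated models may share reads. Multiples of 4 were 26.9% to 37.7% of the values between 1 and 12 in each library, so 1 fragment may stand for several counts, and an added alternative used counts divided by 4. Errors come from the spread between libraries, which may be technical.

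Members were found by their rule on CPM with Python 3.11.15 and pandas 2.3.3. All 17471 models kept by filterByExpr were fitted with edgeR 4.0.16 in R 4.3.3 (TMM factors, quasi-likelihood test, group as the single term, Benjamini-Hochberg adjustment, threshold 0.05), a step tested on simulated data. Standard errors were obtained as the log2 change over the square root of F. Alternatives used other factors, no filter, DESeq2 1.42.0, limma-voom (limma 3.58.1), a replicate block, other limits of the rule and left-out libraries. On counts divided by 4, the lowest of 20 pairs of libraries within a group gave a chi-square of 3.94 per degree of freedom. How many counts a fragment stands for is not known, so whether any pair agreed within sampling noise was not settled.

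The members, the lists and the alternatives were chosen with earlier results of these data known. Named by identifier are the members with the largest line mean and the largest ratio; others are given by rank in line CPM or as extremes. Gene lists and cell type markers could not be matched to the identifiers.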

Additional observations from a re-analysis of the deposited data

Results flagged for a closer look

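In 38 sets of 5 libraries, which were the members' shares, the shares of the 100 most abundant WT models and the CPM of 17 members (ranks 1 to 10, and those with the largest and smallest ratio, the lowest line level, the narrowest gap, the widest WT spread and the widest and narrowest line spread), each in the line and in WT, no library lay far from the other 4 by Dixon's criterion at 0.71 of the range. Chance alone gives about 1 in 20. The criterion looks for 1 stray library and can miss libraries that deviate together, such as WT replicates 1 and 3.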

How the results depend on the processing

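The number of members depended on the limits of the rule and less on the libraries. It was 461 as reported, 325 with TMM factors, 350 with RLE factors, 269 with upper-quartile factors, 866 from 50 CPM, 220 from 200 CPM, 697 from a ratio of 1.5 and 200 from a ratio of 3, and between 449 and 478 with any 1 library left out. The members' median log2 change was 1.49 with library totals alone, 1.46 with limma-voom, 1.53 without WT libraries 1 and 3 and 1.16 without WT libraries 2, 4 and 5 (the last 2 chosen after seeing the data), and between 1.27 and 1.43 with any 1 library left out. Library totals alone moved the median of all models by 0.18 relative to TMM and upper-quartile factors by -0.15; for limma-voom the cause was not tested. With the 100 most abundant WT models out of the total, the members' share was 19.2% in the line and 8.18% in WT; without WT libraries 2, 4 and 5 it was 5.30% in WT; with 1 library left out it lay between 13.98% and 14.1% in the line and between 4.50% and 4.82% in WT. Allowing a step of 2 between numbers put 82 members in runs, which a wider step must raise. Models called higher numbered between 4852 and 5638 and models called lower between 5113 and 5746 with 1 library left out. Same-numbered libraries did not deviate together (correlations between -0.16 and 0.02, and 0 of 5 line libraries closest to its own number). The labels tie them by number alone, and a shared batch was not tested. A replicate block called 5050 models higher and 5349 lower and gave the members a median of 1.40. Of 238 alternative log2 changes of 17 members (ranks 1 to 10 and the extremes of ratio, level, gap and spread), 219 moved by less than the spread between libraries, 19 by more, all of them with library totals alone or upper-quartile factors, and 0 changed sign.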

Other observations

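Within the line, replicates 3 and 4 were the 2 highest libraries in 132 members (28.6%), replicates 2 and 5 in 66 (14.3%), and each of the other 8 pairs in at most 50. The other 1314 models of at least 100 CPM in the line showed nearly the same shares, 27.1% and 11.2%, so this is no trait of the members. With TMM factors replicates 3 and 4 were highest in 20.4% of the members and 18.1% of the others. The members' share of all counts was largest in line replicates 3 and 4, at 14.4% and 14.3%, and the 100 models with the largest WT mean had their smallest shares in the same libraries, at 25.5% and 25.96%, against 27.3%, 28.1% and 27.6% in line replicates 1, 2 and 5. With those 100 models out of the total, the members' share lay between 19.1% and 19.4% in all 5 line libraries. In WT it still lay between 7.02% and 9.52% on that scale.

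Members were found over the whole range of MSTRG numbers, with 35 to 58 in each of 10 equal stretches of that range. In a stretch they made up between 18.3% and 29.9% of the models of at least 100 CPM in the line.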
